A study of Homo sapiens with 3 samples.

Results

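The genes described here encode the nuclear subunits of the mitochondrial respiratory chain and ATP synthase, measured by RNA sequencing in T47D, a human cell line from a breast tumour that expresses the estrogen receptor. Members were the rows of the deposited expression table whose gene name begins with NDUFA, NDUFB, NDUFC, NDUFS, NDUFV, UQCR, ATP5, COX4I, COX5, COX6, COX7 or COX8, or is SDHA, SDHB, SDHC or SDHD. Assembly factors named NDUFAF, numbered pseudogenes and names with a hyphen were left out. The rule found 88 of the 58039 listed genes: 39 of complex I, 4 of complex II, 9 of complex III, 17 of complex IV and 19 of complex V. The rule reads names alone, so 7 of the 88 are no subunits: NDUFA4L2, UQCRHL, COX7A2L, ATP5L2, ATP5J2LP, ATP5S and ATP5SL. Gene names are those of the deposited table, where for example ATP5B is the gene now called ATP5F1B.

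The study lowered ERINA, a long noncoding RNA, with short hairpin RNAs (shRNAs) in stable T47D cells made with lentivirus and puromycin. There was 1 control library, labelled as a control hairpin in one field and as having no shRNA in another, and there were 2 knockdown libraries, each from cells with a different hairpin (shRNA1 and shRNA2). The cells of all 3 libraries share the parent line. No condition was repeated, so p-values rest only on the spread between the hairpin libraries, which the test pools in part over genes. Both hairpins are compared with the same control.

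As background, the respiratory chain sits in the inner mitochondrial membrane. Complex I (NADH dehydrogenase) and complex II (succinate dehydrogenase) pass electrons to ubiquinone, complex III (the cytochrome bc1 complex) passes them to cytochrome c, and complex IV (cytochrome c oxidase) passes them to oxygen. Complexes I, III and IV pump protons, and complex V (ATP synthase) uses the gradient to make ATP. Most subunits are encoded in the nucleus, a few in mitochondrial DNA, and only some of them carry the catalytic and electron-transfer sites. The small ones without such sites are called accessory or supernumerary subunits.

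The gene that RefSeq lists with the synonym ERINA, LINC00992, stood at 63.4 FPKM (fragments scaled to transcript length and library size) in the control against 5.21 with shRNA1 and 8.91 with shRNA2. All 9 luminal markers checked, among them ESR1 and KRT8, lay between 16.5 and 5210 FPKM in every library. Among markers of other cells the highest was TP63, a basal marker, at 1.63 FPKM with shRNA2. Immune and endothelial markers reached at most 0.281 and 0.0259 FPKM, and COL3A1 (fibroblast) and CD3E (T cell) were listed at 0 throughout. The 4 fibroblast markers summed to 0.165 FPKM for the control, 1.29 for shRNA1 and 0.697 for shRNA2, and their part in the results was not tested. DCN carried that difference, while PDGFRB went from 0.129 FPKM to 0.0101 and 0.00495. The depth, estimated from genes whose deposited bounds fit a single fragment, came to 30700000 for the control library, 31600000 for shRNA1 and 32000000 for shRNA2. Total FPKM was 790290, 860240 and 808451 in the same order, so a scaling of every library to the same total lowers the values of shRNA1 most.

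Promoter sequence is a feature that the naming rule did not use, and RefSeq windows of 300 bases (250 before to 50 after the start of the gene, GRCh38.p14) matched 70 of the 88 members. Exact letters were searched on both strands for motifs of factors known to act at respiratory genes. The NRF1 letters GCGCATGC were in 18.6% of the 70 windows and in 3.27% of all 27305 promoters of the table. The ETS letters CCGGAAG, the type that GABPA binds, were in 27.1% against 10.7%, and the YY1 letters AAGATGGCG in 11.4% against 1.85%. The ERR letters TCAAGGTCA were in 1.43% against 0.359%, and TATAAA was in 10.0% against 12.0%. Matches of different motifs overlapped in 0 of the 70 windows, and 42.9% of the 70 windows held at least 1 of the first 3 motifs against 14.6% of all promoters. A match describes the letters only and is not evidence of binding. Among the members above the control with both hairpins, 13 of 47 windows held the ETS letters, and among those below it 5 of 14 did. For the NRF1 letters these counts were 8 of 47 and 4 of 14, and for YY1 3 of 47 and 3 of 14.

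The windows below belong to genes on opposite sides of the control: NDUFB1 (chr14:92121657-92121956, minus strand), NDUFA7 (chr19:8321326-8321625, minus strand) and ATP5G2 (chr12:53676034-53676333, minus strand) stood above it with both hairpins, and NDUFS4 (chr5:53560389-53560688, plus strand) and SDHB (chr1:17053983-17054282, minus strand) below it. They are written 5′ to 3′ on the strand of the gene, with the NRF1, ETS, YY1 and ERR letters in capitals; a match on the other strand appears as its reverse complement.
NDUFB1: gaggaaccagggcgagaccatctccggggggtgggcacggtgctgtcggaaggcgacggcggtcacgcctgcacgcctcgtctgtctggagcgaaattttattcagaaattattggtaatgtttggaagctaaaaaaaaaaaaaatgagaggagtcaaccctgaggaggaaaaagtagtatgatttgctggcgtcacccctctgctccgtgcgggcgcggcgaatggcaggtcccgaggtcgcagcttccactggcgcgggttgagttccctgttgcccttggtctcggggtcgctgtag
NDUFA7: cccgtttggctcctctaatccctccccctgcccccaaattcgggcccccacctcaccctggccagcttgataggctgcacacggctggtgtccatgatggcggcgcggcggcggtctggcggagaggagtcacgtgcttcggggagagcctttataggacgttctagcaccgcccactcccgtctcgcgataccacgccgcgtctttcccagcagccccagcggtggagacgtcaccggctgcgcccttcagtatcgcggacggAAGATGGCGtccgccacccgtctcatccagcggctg
ATP5G2: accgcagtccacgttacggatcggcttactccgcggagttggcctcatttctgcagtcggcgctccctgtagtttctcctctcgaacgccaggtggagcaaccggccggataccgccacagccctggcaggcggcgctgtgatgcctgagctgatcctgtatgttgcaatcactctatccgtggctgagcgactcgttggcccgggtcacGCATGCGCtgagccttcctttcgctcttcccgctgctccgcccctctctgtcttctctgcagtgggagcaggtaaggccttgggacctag
NDUFS4: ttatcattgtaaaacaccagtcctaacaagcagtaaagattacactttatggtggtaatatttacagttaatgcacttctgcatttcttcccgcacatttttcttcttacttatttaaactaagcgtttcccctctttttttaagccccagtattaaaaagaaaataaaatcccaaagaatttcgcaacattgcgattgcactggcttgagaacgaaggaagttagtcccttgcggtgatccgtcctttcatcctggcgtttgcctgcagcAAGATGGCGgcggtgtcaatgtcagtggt
SDHB: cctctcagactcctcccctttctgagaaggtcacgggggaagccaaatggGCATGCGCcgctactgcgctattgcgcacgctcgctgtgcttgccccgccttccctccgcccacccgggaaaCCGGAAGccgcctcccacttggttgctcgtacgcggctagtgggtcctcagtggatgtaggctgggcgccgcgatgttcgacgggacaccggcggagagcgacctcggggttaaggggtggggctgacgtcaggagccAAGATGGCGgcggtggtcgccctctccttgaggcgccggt
The YY1 letters lie just after the annotated start in both NDUFA7 and NDUFS4, which differ in direction. ATP5G2 has NRF1 letters, SDHB has NRF1, ETS and YY1 letters, and NDUFB1 has none of those searched. TATAAA, left unmarked, occurs in the window of NDUFA7 alone among these, on the other strand. SDHA, which was also below the control with both hairpins, is not shown, and its window holds none of the letters searched.

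Most of the chain was well above the limit of detection. Of the 88 members, 80 had a mean of at least 1 FPKM and were tested, and 55 of them reached 100 FPKM or more in the control. The 8 others were tissue isoforms and paralogs: COX4I2, COX6A2, COX7A1, COX8C and ATP5J2LP were listed at 0 in every library, and COX6B2, NDUFA4L2 and ATP5L2 stood below 0.7 FPKM. The tested members of complex IV had the highest median, 310.9 FPKM in the control against 356.8 with shRNA1 and 334.8 with shRNA2. Complex V followed at 261.4, 298.3 and 281.9 FPKM, then complex III at 190.9, 172.4 and 172.1, complex I at 117.7, 134.0 and 131.9, and complex II at 116.5, 117.5 and 117.3. All members together made up 2.04% of the total FPKM in the control against 2.09% with shRNA1 and 2.12% with shRNA2. Their summed share thus differed little between libraries.

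**Figure D1:**
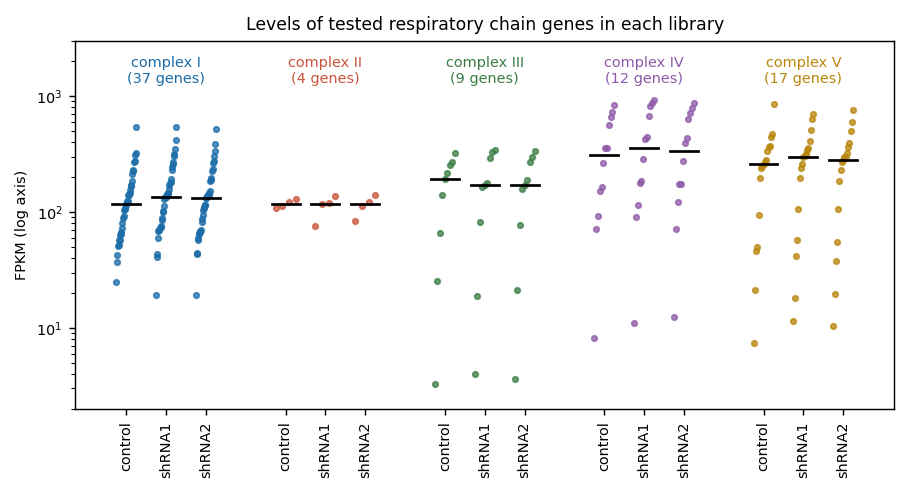
FPKM on a log axis of 79 tested members, by complex and library, with 1 point per gene and a bar at the median. Complexes IV and V lie highest, at control medians of 310.9 and 261.4 FPKM, and the spread between genes of a complex is far wider than the shift between libraries.

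In the comparison of knockdown with control, 55 of the 80 tested members were above the control with both hairpins, 18 were below it and 7 were split. Over all 13112 genes tested, 42.4% were above the control with both hairpins and 42.6% below it. Here and below, sides were counted by sign with no minimum size. COX7B thus counted as above at 0.297% with shRNA2, and NDUFS3 as below at -0.122% with shRNA2. The sizes were small: after adding the pseudocount, 7 members were 25% or more above the control with both hairpins, where 12.4% of all genes were, and 3 members were 20% or more below it, where 15.4% were. With shRNA1 alone, 18 members passed the upper bound and 5 the lower one, where 19.8% and 22.9% of all genes did. With shRNA2 alone these were 7 and 3 members, where 15.3% and 18.2% of all genes passed. The median change of the members on the log2(FPKM + 0.5) scale was 0.161, with 0.200 for shRNA1 and 0.097 for shRNA2, against 0.001 over all genes. Scaled to the same total FPKM, 43 members were above and 25 below the control, and 33.3% and 49.7% of all genes were. The median of all genes was then -0.115 for shRNA1, and the members stood 0.157 above the median of all genes, close to the 0.160 of the values as deposited.

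No member passed limma's test across all genes (Benjamini-Hochberg adjusted p under 0.05), which called 0.0839% of genes as higher and 0.267% as lower. Of the 80 members, 25 had an unadjusted p under 0.05, where 29.7% of all genes had. Of the 25, 21 were higher and 4 lower, where 13.7% of all genes were higher and 15.9% lower at that p. The lowest adjusted p among members was 0.0865, for NDUFS4. The deposited bounds gave the same picture, since 0 members had bounds with both hairpins clear above those of the control and 0 clear below, against 0.0839% and 0.221% of all genes. These bounds are wide, with a median half-width of 39.1% of the FPKM in the control against 38.2% with shRNA1 and 39.1% with shRNA2. Each belongs to 1 library, and the kind of error it covers is not given in the sources used here. Fitted to protein-coding genes alone, limma called 8 members higher and 2 lower, where it called 7.11% of those genes higher and 11.3% lower. The 8 were NDUFB1, NDUFA4, NDUFA7, NDUFA1, COX7A2L, COX7B2, ATP5G2 and ATP5S, and the 2 were NDUFS4 and SDHA. NDUFA7 and NDUFA1 fall outside the rule for named genes and are named for this result. By GENCODE 29, 47 of the 88 members overlap an exon of another gene, among them NDUFA7 (with RPS28), NDUFA1 (with RNF113A), ATP5S (with CDKL1), SDHC and UQCRFS1, and whether counting used strand is not given in the sources used here. NDUFS4, NDUFB1, SDHA, NDUFA4, COX7A2L and COX7B2 have no such overlap, and the 36 tested members without one had a median log2 change of 0.162.

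**Figure D2:**
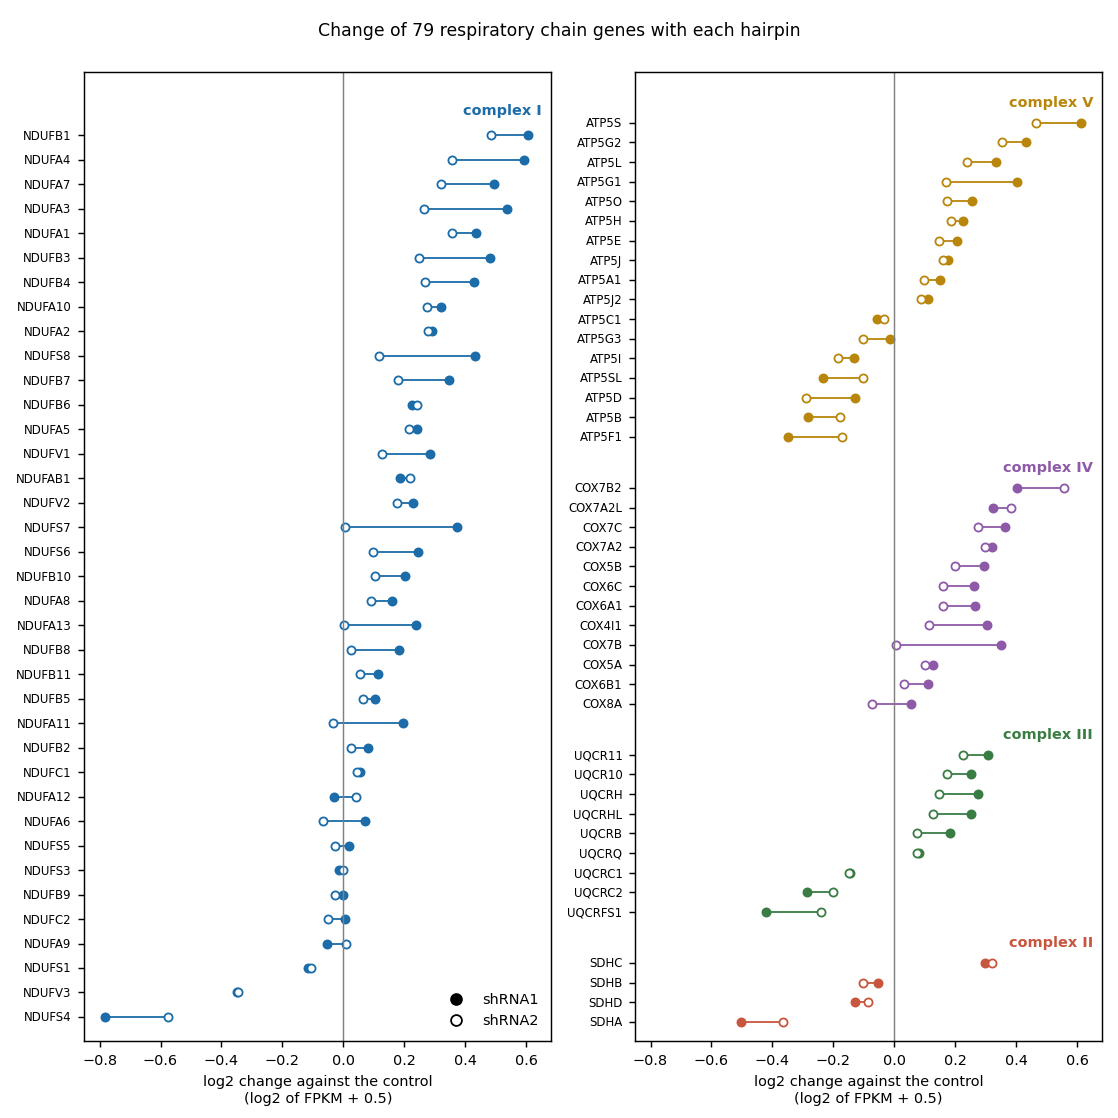
Change of each of 79 tested members against the control on the log2(FPKM + 0.5) scale, with filled points for shRNA1 and open points for shRNA2, ordered within each complex. In complex IV 11 of 12 genes lie right of 0 with both hairpins, and NDUFS4 lies farthest left, at -0.78 and -0.58.

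The complexes differed in how their members were placed. In complex I 27 of 38 tested members were above the control with both hairpins and 5 below it, with a median log2 change of 0.139. Complex II had 1 above and 3 below, with a median of -0.092. Complex III had 6 above and 3 below (median 0.129), complex IV 11 above and none of 12 below (median 0.212), and complex V 10 above and 7 below (median 0.125). The order of complex IV highest and complex II lowest held in each hairpin library, at 0.299 and 0.161 for complex IV and at -0.091 and -0.094 for complex II. Genes are not replicates of a complex and complex II has 4 of them, so no test was made between complexes. Summed over tested and low members, complex IV came to 4252.1 FPKM in the control against 5036.6 with shRNA1 and 4680.9 with shRNA2, while complex II came to 470.19, 448.70 and 458.36 FPKM.

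**Figure D3:**
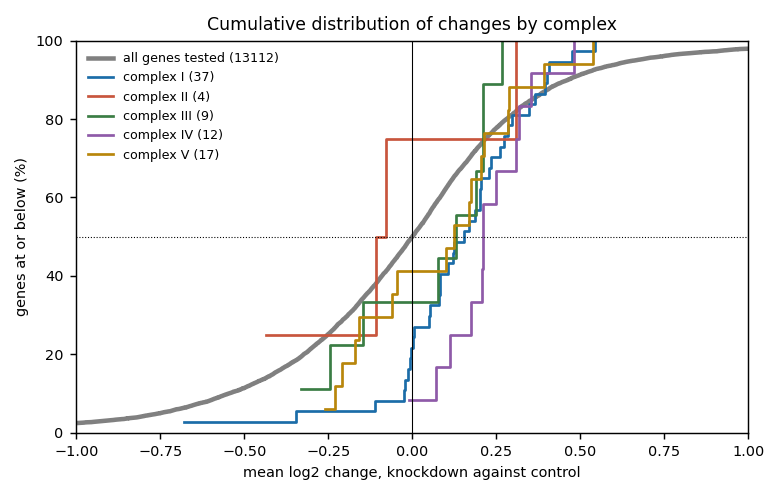
Cumulative share of genes (%) at or below each mean log2 change, for all 13112 genes tested in grey and for 79 tested members by complex in colour, with the x axis limited to changes of 1 in size. The curve of complex IV lies right of the grey curve over most of its range, with a median of 0.212 against 0.001. Complex II is the only complex with a median below 0, at -0.092.

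Complex I takes electrons from NADH in a matrix arm and pumps protons in a membrane arm. Its nuclear core has 7 subunits, and 0 of them passed limma's test or had an unadjusted p under 0.05. NDUFS8, an iron-sulfur subunit, was at 170.0 FPKM in the control against 229.7 with shRNA1 and 184.2 with shRNA2, so most of its log2 change of 0.27 ± 0.16 (SE) came from shRNA1. NDUFV1, the flavin subunit that accepts electrons from NADH, was at 106, 129 and 116 FPKM in the same order. NDUFV2, which holds the iron-sulfur centre beside it, was at 125, 146 and 141 FPKM. NDUFS7, at the ubiquinone site, was at 57.2 FPKM in the control and 57.3 with shRNA2, with 74.1 for shRNA1 alone. Some core subunits stayed near the control. NDUFS3 was at 139.9, 138.6 and 139.7 FPKM, and NDUFS1, the largest core subunit, at 64.1, 59.0 and 59.5 FPKM.

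The accessory subunits of complex I spread more widely. In the membrane arm 16 of 20 were above the control with both hairpins and 1 below it, with a median log2 change of 0.122. In the matrix arm 4 of 9 were above and 2 below, with a median of 0.004. NDUFB1, a small membrane arm subunit encoded at chr14:92116122-92121917, was at 275.8 FPKM in the control against 419.7 with shRNA1 and 385.7 with shRNA2. Both hairpin libraries lay above the control by 1.52-fold and 1.40-fold, a log2 change of 0.54 ± 0.10 (SE; 95% interval 0.27 to 0.82) with an adjusted p of 0.0873 in limma. Over the alternatives that adjusted p ran from 0.0137 to 0.239. It passed 0.05 where protein-coding genes alone were tested, with robust eBayes, and after removing the trend with transcript length and GC content. Its deposited bounds overlapped, reaching 381.1 FPKM in the control and starting at 268.7 with shRNA1.

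NDUFS4, an accessory subunit of the matrix arm whose loss in people is a known cause of Leigh syndrome, was lower with both hairpins. The gene, at chr5:53560633-53683340, was at 154.0 FPKM in the control against 89.4 with shRNA1 and 103.2 with shRNA2. The hairpin libraries lay near each other and apart from the control, at 0.581 and 0.670 of its level. Its log2 change of -0.68 ± 0.12 (SE; 95% interval -1.01 to -0.34) was the lowest of all members, with an adjusted p of 0.0865 in limma and a range of 0.0100 to 0.254 over the alternatives. NDUFS4 passed 0.05 under the same 3 alternatives as NDUFB1. NDUFV3, a matrix arm subunit beside the flavin site, was at 24.7 FPKM in the control against 19.3 with shRNA1 and 19.3 with shRNA2, the lowest level of any tested member of complex I. NDUFC2, at the other end, was at 537.7, 539.8 and 519.8 FPKM and did not move on one side. No other tested member of complex I was 20% or more below the control with both hairpins.

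NDUFA4 carries a complex I name but is assigned to complex IV by later biochemical work, and it was among the members farthest above the control. It was at 118.5 FPKM in the control against 179.1 with shRNA1 and 151.8 with shRNA2. The log2 change was 0.47 ± 0.13 (SE), with an adjusted p of 0.121 in limma. Its paralog NDUFA4L2, known as a hypoxia-induced gene, was not tested, at 0.636, 0.391 and 0.481 FPKM. Counting NDUFA4 with complex IV left the median of that complex at 0.212 and moved that of complex I from 0.139 to 0.124.

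Complex II, which also works in the citric acid cycle and has no subunit from mitochondrial DNA, was split between its flavoprotein and 1 of its membrane anchors. SDHA, the flavoprotein that oxidizes succinate (chr5:218241-256700), was at 107.7 FPKM in the control against 75.8 with shRNA1 and 83.5 with shRNA2. Both hairpin libraries were below the control, with a log2 change of -0.43 ± 0.10 (SE) and an adjusted p of 0.101 in limma that ran from 0.0269 to 0.261 over the alternatives. SDHA has 3 pseudogene rows that together stood at 4.90, 4.51 and 7.05 FPKM, or 4.55%, 5.95% and 8.44% of the level of SDHA, and how shared reads were divided is not given in the sources used here. SDHC, a membrane anchor, was at 112.1, 138.0 and 140.2 FPKM, above the control with both hairpins by a log2 change of 0.31 ± 0.08 (SE; adjusted p 0.110 in limma). The remaining pair was nearer to the control. SDHB, the iron-sulfur protein, was at 120.8, 116.4 and 112.5 FPKM. SDHD, the other anchor, was at 129.6, 118.5 and 122.1 FPKM.

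The members of complex III separated by subunit kind. The Rieske protein and both large core proteins were below the control with both hairpins, and all 5 small subunits were above it. This split holds only for subunits under the naming rule, which leaves out CYC1, the cytochrome c1 of the complex. CYC1 was above the control with both hairpins, by a log2 change of 0.332, more than any small subunit. MT-CYB, the mitochondrially encoded subunit, was split between the hairpins. UQCRFS1, the Rieske iron-sulfur protein that takes electrons from ubiquinol, was at 25.3 FPKM in the control against 18.8 with shRNA1 and 21.3 with shRNA2, a log2 change of -0.33 ± 0.12 (SE; adjusted p 0.172 in limma). UQCRC2, a core protein that faces the matrix, was at 217.0, 177.8 and 188.6 FPKM. UQCRC1, its partner, was at 190.9, 172.4 and 172.1 FPKM. The small subunits had a median log2 change of 0.212, from 0.078 for UQCRQ to 0.267 for UQCR11. UQCR11 was at 66.1 FPKM in the control against 81.9 with shRNA1 and 77.4 with shRNA2. UQCR10, another small subunit, was at 139.2, 165.7 and 157.1 FPKM. UQCRQ had the highest level of the complex, at 321.4, 340.2 and 338.4 FPKM. UQCRH, the hinge protein near cytochrome c1, was at 271.3, 328.5 and 300.7 FPKM. Its intronless paralog UQCRHL was at 3.28, 4.01 and 3.64 FPKM, and whether reads of UQCRH were counted there was not tested.

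Complex IV was the most one-sided. Of its 12 tested members, COX8A alone was on both sides of the control, at 835.7 FPKM in the control against 868.0 with shRNA1 and 794.5 with shRNA2. Several subunits of this complex exist as general and tissue forms, and T47D held the general forms. COX4I1, the general form of subunit IV, was at 663.1, 818.5 and 718.1 FPKM, whereas COX4I2, the lung form, was listed at 0. COX6A1, the liver form of subunit VIa, was at 562.5, 675.4 and 628.8 FPKM, and COX6A2, the muscle form, was listed at 0. COX6B1 was at 266.7, 287.7 and 272.5 FPKM, a change that turned slightly negative on scaling to the same total, and its testis form COX6B2 was at 0.0578 FPKM in the control and listed at 0 with both hairpins. COX8C, the testis form of subunit VIII, was listed at 0. The general forms thus gave nearly all of the RNA, with COX7B2 as the tissue form that passed the filter.

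COX7A2, the liver form of subunit VIIa, was at 356.1 FPKM in the control against 445.1 with shRNA1 and 437.8 with shRNA2, and COX7A1, the muscle form, was listed at 0. COX7A2L, a paralog that links complexes III and IV into supercomplexes, was at 92.5, 115.8 and 120.8 FPKM, with a log2 change of 0.35 ± 0.08 (SE; adjusted p 0.102 in limma, 0.0374 to 0.232 over the alternatives). Both paralogs lay between 1.23-fold and 1.31-fold of the control with each hairpin. COX7B was at 71.5 FPKM in the control and 71.7 with shRNA2, with 91.2 for shRNA1 alone. COX7B2, its testis paralog, was at 8.25, 11.1 and 12.4 FPKM, the lowest tested level of the complex, with a log2 change of 0.48 ± 0.13 (SE; adjusted p 0.116 in limma). COX5A, which has a single form on this chain, was at 163.9, 179.0 and 175.6 FPKM.

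**Figure D4:**
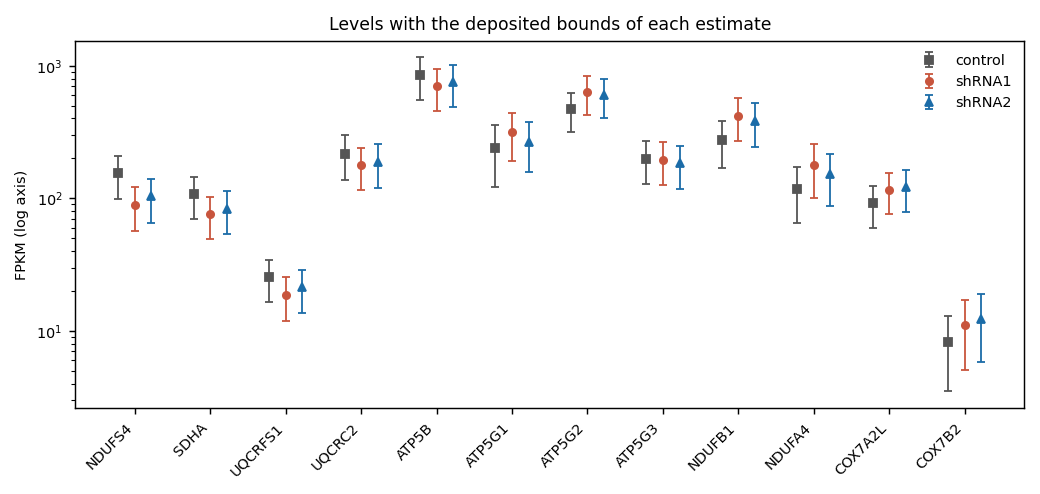
FPKM on a log axis of 12 members in the control (squares), shRNA1 (circles) and shRNA2 (triangles), with bars for the deposited lower and upper bounds. NDUFS4 goes from 154.0 to 89.4 and 103.2 FPKM and NDUFB1 goes from 275.8 to 419.7 and 385.7 FPKM, and the bars of the control and the hairpins overlap for every gene shown.

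In complex V, the F1 head, the stalk and the membrane parts each had members on both sides of the control. ATP5B, the beta subunit that carries the catalytic sites, had the highest control level of all members, at 852.0 FPKM, and was at 700.8 with shRNA1 and 753.1 with shRNA2. Its log2 change was -0.23 ± 0.10 (SE), with an adjusted p of 0.218 in limma. ATP5A1, the alpha subunit that alternates with it in the head, was at 366.5, 407.0 and 392.2 FPKM, on the other side of the control. ATP5C1, the gamma subunit of the central shaft, was at 373.4, 358.8 and 364.7 FPKM. ATP5D, the delta subunit, was at 46.0, 42.1 and 37.6 FPKM, and ATP5E, the epsilon subunit, at 49.97, 57.7 and 55.3 FPKM. The F1 subunits thus had 2 above and 3 below the control, with a median of -0.046. ATP5F1, subunit b of the peripheral stalk that holds the head still, was at 333.0, 261.5 and 295.4 FPKM, the lowest log2 change of the complex at -0.26 ± 0.11 (SE). The other 3 stalk subunits, ATP5H, ATP5J and ATP5O, were above the control with both hairpins.

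Subunit c forms the rotating ring in the membrane and is made from 3 genes whose mature proteins are the same. ATP5G2 was at 467.9 FPKM in the control against 631.2 with shRNA1 and 598.2 with shRNA2, a log2 change of 0.39 ± 0.09 (SE; adjusted p 0.102 in limma, 0.0337 to 0.243 over the alternatives). ATP5G1 was at 238.2, 314.9 and 267.8 FPKM. ATP5G3 was at 198.1, 196.1 and 184.3 FPKM, just below the control. Their sum was 904.2 FPKM in the control against 1142 with shRNA1 and 1050 with shRNA2, so ATP5G2 went from 51.7% of it to 55.3% and 57.0%, and ATP5G3 from 21.9% to 17.2% and 17.5%. ATP5S, also called coupling factor B and no subunit of the enzyme, had the highest log2 change of the complex, 0.54 ± 0.13 (SE; adjusted p 0.104 in limma). It was also its lowest tested gene, at 7.40, 11.6 and 10.4 FPKM. The 3 small membrane subunits, ATP5I, ATP5J2 and ATP5L, had 2 above and 1 below the control, with log2 changes from -0.158 for ATP5I to 0.287 for ATP5L. ATP5SL, which acts in complex I assembly under the name DMAC2, was at 21.2, 18.0 and 19.7 FPKM.

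Members were also read by role. The core was taken widely here, with the large core proteins of complex III and the whole F1 head, which are not all site-bearing. Of these 19 genes (the 7 of complex I, all of complex II, UQCRC1, UQCRC2 and UQCRFS1, and the 5 of F1), 8 were above the control with both hairpins and 11 below it, with a median log2 change of -0.046. UQCRC1, UQCRC2, ATP5C1, ATP5D and ATP5E carry no catalytic or electron-transfer site. Without these 5 genes, 7 of the remaining 14 were above and 7 below, with a median of 0.034. The sign of the core's median thus rests on those 5 genes. The remaining 14 still hold NDUFS3, a matrix arm subunit, and lack CYC1, which the naming rule leaves out. They are thus not the set of site-bearing genes. Of the 61 tested members outside the core of 19 genes, 47 were above and 7 below, with a median of 0.191. In the mean change of both hairpins, this difference did not hold inside complex I. Its 7 core subunits had 5 above and 2 below, with a median of 0.188. The accessory subunits of complex I had medians of 0.122 in the membrane arm and 0.004 in the matrix arm. With shRNA1 the medians of core, membrane arm and matrix arm were 0.228, 0.200 and 0.071. With shRNA2 they were 0.065, 0.077 and 0.040, so the core lay above the membrane arm with shRNA1 only. Coding length, taken from GENCODE 29, moved with the change. Among 46 tested members with at most 450 coding nucleotides, 37 were above and 3 below, with a median of 0.212, where the 828 other protein-coding genes of that length had 0.036. Among 24 members of over 450 and up to 900 nucleotides, 14 were above and 10 below (median 0.095, against -0.007 for 2310 other genes). Among 10 members over 900 nucleotides, 4 were above and 5 below (median -0.068, against -0.023 for 8328 other genes). Spearman's rho between the log2 change and the coding length was -0.409 over the 80 members and -0.019 over the 11546 protein-coding genes tested. In the same order it was -0.212 and -0.029 for transcript length, -0.112 and -0.092 for GC content, and -0.078 and -0.040 for control level. Coding length thus gave the strongest of these values over the members. They are correlations across genes of the same 3 libraries, given without a p. The length bounds were chosen after the values were seen. The part of role apart from length was not tested.

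**Figure D5:**
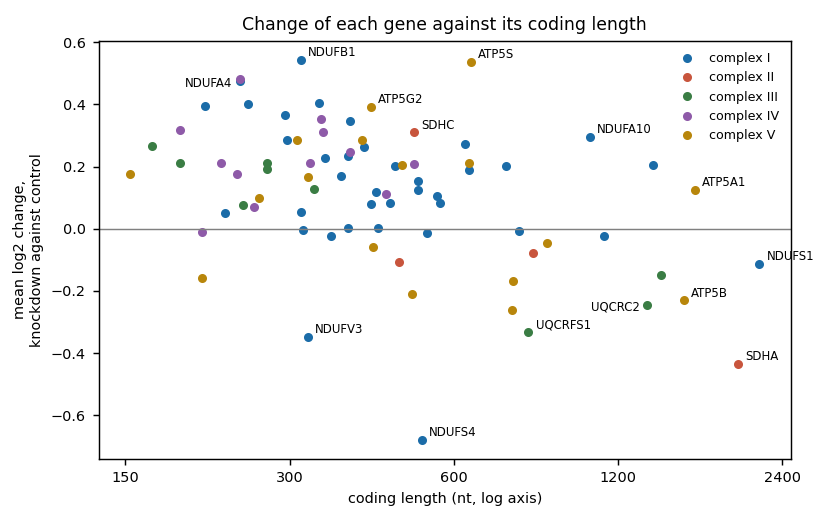
Mean log2 change of knockdown against control for 79 tested members, against coding length in nucleotides on a log axis, coloured by complex. Of the 46 members up to 450 nucleotides 37 lie above 0 with both hairpins, and the members farthest below 0 are NDUFS4 and SDHA.

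The hairpin libraries themselves differed in level across the chain. Of the 80 tested members, 61 had a higher value with shRNA1 than with shRNA2, where 47.6% of all genes did, and the median log2 difference of shRNA1 from shRNA2 was 0.058 against -0.009 over all genes. This direction turned on scaling to the same total: 30 of the members were then higher with shRNA1, with a median of -0.031, where 28.6% of all genes were and their median was -0.093. The residual LINC00992 was also lower with shRNA1, at 5.21 against 8.91 FPKM. In 65 of the 80 members shRNA1 lay farther from the control than shRNA2, as it did in 8737 of all 13112 genes. The log2 difference of shRNA1 from shRNA2 was widest for NDUFS7 (0.368), COX7B (0.344) and NDUFS8 (0.318).

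Partner genes outside the rule were read from fixed lists, of which 0 members passed limma's test across all genes. An unadjusted p under 0.05 was found for 14 of 51 assembly factors, 5 of 13 mitochondrially encoded subunits, 5 of 18 carriers and partners and 1 of 10 regulators, beside 29.7% of all genes. The 13 subunits from mitochondrial DNA had 6 above and 3 below the control with both hairpins, with a median log2 change of -0.004. All 3 of the mitochondrial subunits of complex IV were above it, MT-CO1 at 528.4, 649.2 and 601.1 FPKM, MT-CO2 at 326.4, 436.1 and 408.5, and MT-CO3 at 898.4, 1143 and 1074. Of the mitochondrial subunits of complex I, MT-ND3 had the highest FPKM and was above the control, at 692.6, 897.6 and 826.8. MT-ND6 was also above it, at 0.910, 1.44 and 1.04. MT-ND4 was below it at 59.6, 51.2 and 52.6, as was MT-ND4L at 116.7, 99.95 and 99.5. The other 3 were split between the hairpins. They were MT-ND1, MT-ND2 and MT-ND5, at 8.24, 8.45 and 20.1 FPKM in the control. How reads were divided among mitochondrial genes is not given in the sources used here. The 51 tested assembly factors, which build the complexes and are not part of them, had 26 above and 22 below, with a median of 0.060. ECSIT, a complex I assembly factor, was at 20.3, 11.0 and 12.8 FPKM (log2 change -0.74 ± 0.14, SE). SURF1, a complex IV assembly factor, was at 57.5, 85.3 and 79.2 FPKM (log2 change 0.51 ± 0.09, SE). Both were among the assembly factors farthest from the control and were picked for that.

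The 18 carriers and other partners had 9 above and 7 below the control, with a median log2 change of 0.082. CYC1, the cytochrome c1 of complex III that the naming rule leaves out, was at 182.0, 249.2 and 211.0 FPKM, and CYCS, cytochrome c itself, at 181.0, 208.2 and 194.4. The ADP/ATP carriers differed, with SLC25A5 at 215.4, 153.7 and 162.5 FPKM and SLC25A6 at 128.9, 220.3 and 168.5. Of the 10 tested regulators of respiratory gene transcription, 5 were above and 5 below, with a median of -0.046. NRF1, whose motif letters were searched in the promoters, was at 6.34, 4.09 and 4.60 FPKM (log2 change -0.50 ± 0.15, SE; adjusted p 0.134 in limma). YY1 was at 75.8, 58.4 and 66.3 FPKM, and GABPA at 11.1, 11.4 and 11.7.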

How the data were processed

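RNA of T47D cells was sequenced in 3 libraries, 1 control and 2 with hairpins against ERINA, grouped by the genotype label. The deposited values are FPKM per gene with a lower and an upper bound and a status, per the file headers; all tested members had the status OK. The submitters' processing notes name STAR, RSEM and GRCh38, with no version or role. Not given in the sources used here are the software behind the FPKM, the confidence level of its bounds, the annotation and how libraries were scaled. A count model was not applied to FPKM.

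Genes with a mean of at least 1 FPKM were tested with limma 3.58.1 (R 4.3.3; lmFit, eBayes with trend) on log2(FPKM + 0.5), Benjamini-Hochberg adjusted over all 13112, with a threshold of 0.05. This scale understates changes of low genes, and ratios printed as folds have no pseudocount. The hairpins' difference leaves 1 residual degree of freedom, and the control is assumed to vary like them. With eBayes the variance of each gene is drawn towards a trend over all genes tested. The SE, intervals and p-values are thus moderated and do not give the spread of the gene alone. NDUFV3, with a log2 difference of -0.003 between the hairpins, had an SE of 0.091. An exact permutation test of 1 against 2 libraries could not go below 0.333. Types, coordinates and lengths came from GENCODE 29, which matched 57435 of the 58039 genes and all 88 members; promoter windows came from RefSeq. Depth is an estimate, since FPKM keep no totals, and would be altered by any scaling. Libraries were compared and shared 0 equal nonzero values.

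Named genes were, per complex, the 2 highest and 2 lowest changes on one side of the control with both hairpins, the core subunits, the paralog sets, and the genes of highest and lowest control level. Per-gene values of 1 member, which stays in the counts, are not reported here. The members and lists were chosen with earlier results of these data known. Alternatives covered the pseudocount, the filter, scaling, transcript length and GC content, gene type, the eBayes settings and each hairpin alone. Subunits only, members without exon overlap, NDUFA4 with complex IV, and the settings for the core were chosen after seeing the data. Tables used pandas 2.3.3 and numpy 2.4.6, and plots matplotlib 3.10.9 (Python 3.11.15).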

Additional observations from a re-analysis of the deposited data

How the results depend on the processing

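The medians of the members, of each complex and of the members outside the core kept their sign under every alternative run for them. The median of the core, -0.046, became 0.034 without the core proteins of complex III and the gamma, delta and epsilon subunits of F1, -0.123 with the same total and -0.084 with the trend removed. Of the named genes, 500 of 503 values for 42 genes kept their direction. Scaling every library to the same total gave 175 called genes, a median log2 change of 0.083 over members, -0.170 in complex II and 0.047 in complex V, and 3 members 25% or more above the control; COX6B1 turned negative (-0.007). Removing the trend with transcript length and GC content gave 1092 called genes and 2 called members. It left 1 member 20% or more below the control and a median of -0.111 in complex II. No alternative adjusted for coding length. Robust eBayes gave 1025 called genes and 2 called members, and protein-coding genes alone 2120 and 10. With no filter 26013 genes were tested and 0 called by limma, with an unadjusted p under 0.05 for 5039 genes (19.4%) and 17 members (20.5%). The cause of these shifts in calls was not tested. Leaving out each hairpin in turn, the members 25% or more above the control numbered 7 to 18 and those 20% or more below it 3 to 5, COX8A ran from -0.073 to 0.055 and NDUFC2 from -0.049 to 0.006; these are values with no test. No paired analysis was possible because the control is a single library. The limits are the unrepeated control, 1 residual degree of freedom and deposited bounds with a median half-width of 39.1% in the control. Changes of the size seen in most members lie within the deposited bounds of a single library. The kind of error behind these bounds is not given in the sources used here.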

Other observations

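Processed copies of these genes are common in the genome, and 45 of the 88 members had named pseudogene rows in the deposited table, 157 in all. SDHA had the highest share of its own level in pseudogene rows in each library, 4.55% for the control, 5.95% for shRNA1 and 8.44% for shRNA2. Beside COX6A1 the pseudogene rows stood at 7.58 FPKM in the control, at 11.9 for shRNA1 and at 11.4 for shRNA2, or 1.35% of the level of COX6A1 in the control. Beside NDUFB4 12 rows came to 0.133, 0.260 and 0 FPKM.

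Member promoters had a median GC content of 60.7%, against 58.3% over all promoters of the table.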
